A study of Drosophila melanogaster with 24 samples.

Results

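Metallothionein, ferritin and iron genes of *Drosophila* were followed through RNA interference against *Sin3A* and *lid* and through oxidative stress by paraquat. The set held 10 genes picked by name and known role: *MtnA*, *MtnB*, *MtnC*, *MtnD*, *MTF-1*, *Fer1HCH*, *Fer2LCH*, *Irp-1A*, *Irp-1B* and *mfrn*. All 10 were found among the 14542 loci of the tables, each in a row with no other gene name. The names were put together with values from these same libraries in view, so the values of the 10 genes are given as a description, with no p-value. Where a threshold applied to all loci is counted for them, the count is a description too.

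The libraries came from S2 cells, a *Drosophila* line of hemocyte-like cells, all cultured in the same medium with serum. For RNA interference the study exchanged this medium for serum-free medium, added dsRNA and then added further medium. All cells were exposed to dsRNA for 4 days. The 8 groups were SIN3 KD+LID KD (dsRNA against *Sin3A* and *lid*), SIN3 KD (*Sin3A* dsRNA), LID KD (*lid* dsRNA) and GFP RNAi (dsRNA against *GFP*, the control), each with 8.3 mM paraquat for 24 h and each without it. SIN3 is the scaffold of a histone deacetylase complex, LID is a histone H3K4 demethylase, and paraquat is a herbicide that produces superoxide inside cells. Each group had 3 libraries, which the authors combined into 1 FPKM value (fragments per kilobase of transcript, scaled to the number of mapped fragments) per locus. The deposited values therefore carry no replicate error and no read counts, and the depth of each library is not in the tables. Each factor could be compared in 4 pairs of groups that differed by that factor alone and shared no library, and the range over these pairs is the spread given below. The 3 libraries of a group are biological replicates per the methods of the study.

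Metallothioneins are very short, cysteine-rich proteins that bind copper, zinc and cadmium. In flies they are switched on by MTF-1, a zinc finger factor that binds metal response elements in their promoters. Ferritin stores iron in a shell of heavy chains (*Fer1HCH*), which oxidize the metal, and light chains (*Fer2LCH*). In insects this shell is assembled in the secretory pathway. IRP1 proteins are cytosolic aconitases that lose their iron-sulfur cluster when iron is low, and in *Drosophila* the product of *Irp-1A*, but not that of *Irp-1B*, then binds iron-responsive elements in mRNAs such as that of *Fer1HCH*. Mitoferrin (*mfrn*) brings iron into mitochondria for heme and iron-sulfur cluster synthesis.

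The targeted genes were examined before the set itself. *lid* stood at 17.0 and 15.4 FPKM in SIN3 KD+LID KD and LID KD cells with paraquat and at 16.9 and 14.9 FPKM in the same cells without it, against 35.8 to 43.0 FPKM in the 4 groups without *lid* dsRNA. *Sin3A* lay between 58.0 and 67.9 FPKM in all 8 groups. The study checked the knockdown of SIN3 on the protein, by western blot, which these tables do not measure. The *Sin3A* transcript level did not show it, and the comparisons below set groups labelled SIN3 KD beside groups without *Sin3A* dsRNA. Between 7537 and 7764 loci per group reached 1 FPKM. Of 8 hemocyte markers 7 were found and 6 reached 1 FPKM in all groups, whereas 7 of 8 markers of nerve, muscle, fat body and germ line stayed under 1 FPKM. The exception was the nerve marker *elav*, at 3.22 to 5.03 FPKM and higher with *Sin3A* dsRNA in all 4 pairs. It made up most of the summed level of these 8 markers (4.22 to 5.86 FPKM). The summed level of the hemocyte markers was 584, 601, 805 and 930 FPKM in SIN3 KD+LID KD, SIN3 KD, LID KD and GFP RNAi cells with paraquat, against 819, 786, 1155 and 1361 FPKM in the same cells without it. It was thus lower with paraquat, and lower with *Sin3A* dsRNA, in all 4 pairs of each. *Pxn*, for example, read 23.6 FPKM in stressed SIN3 KD+LID KD cells and 151 FPKM in unstressed GFP RNAi cells. The part of this shift in the results below was not tested, and a lower share of a cell state cannot be told apart from less RNA of these genes per cell.

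*Fer1HCH* was the most abundant of the 10 transcripts in all groups. It reached 2308, 2648, 2136 and 2218 FPKM in SIN3 KD+LID KD, SIN3 KD, LID KD and GFP RNAi cells with paraquat, against 1009, 1172, 878 and 935 FPKM in the same cells without paraquat. The stressed and unstressed groups did not overlap. The ratio of stressed over unstressed cells was nearly the same under every dsRNA, between 2.26 and 2.43. An additive model fitted with limma to all 8 groups placed the paraquat effect at 1.22 ± 0.049 (SE) on the log2 scale. *Fer1HCH* alone made up 0.265% to 0.325% of the summed FPKM of stressed cells, against 0.111% to 0.156% in unstressed cells, and the 10 genes together made up 0.366% to 0.423% against 0.160% to 0.195%.

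*Fer2LCH*, the light chain gene, moved in the same direction on a far lower level. It stood at 8.45, 8.63, 6.55 and 6.84 FPKM in SIN3 KD+LID KD, SIN3 KD, LID KD and GFP RNAi cells with paraquat, against 6.01, 6.14, 4.57 and 5.33 FPKM in the same cells without it. Again the stressed and unstressed groups did not overlap. Its paraquat ratio lay between 1.28 and 1.43 (log2 effect 0.46 ± 0.056, SE). The FPKM of *Fer1HCH* was 273 to 326 times that of *Fer2LCH* in stressed cells, against 168 to 192 times in unstressed cells. Both rows carry the same interval (dm3, chromosome 3R, 26211295 to 26216306). In the later Release 6 annotation the genes overlap by 375 bases on opposite strands, and the counting is not stated to use strand. How the authors' pipeline divided reads between the 2 ferritin genes was not tested, so the difference in level between them is uncertain. How far the differences of each ferritin gene between groups are independent of reads of the other is uncertain for the same reason. This limit also covers the levels, ratios and shares given above for *Fer1HCH*.

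*MtnA* was the main metallothionein transcript of these cells. It was listed at 552, 647, 683 and 762 FPKM in SIN3 KD+LID KD, SIN3 KD, LID KD and GFP RNAi cells with paraquat, against 222, 164, 346 and 218 FPKM in the same cells without paraquat. All stressed groups lay above all unstressed ones. The paraquat ratio ran from 1.97 in LID KD cells to 3.94 in SIN3 KD cells, so its spread between dsRNA backgrounds was wider than that of *Fer1HCH* (log2 effect 1.52 ± 0.16, SE). The gene lies on chromosome 3R at 5609129 to 5610092 (dm3).

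*MtnD* was higher with paraquat in all 4 pairs, but by unequal amounts. It stood at 7.67, 6.75, 3.36 and 4.20 FPKM in SIN3 KD+LID KD, SIN3 KD, LID KD and GFP RNAi cells with paraquat, against 1.43, 1.88, 1.99 and 3.39 FPKM in the same cells without it. The lowest stressed value, from LID KD cells, fell just below the highest unstressed value, from GFP RNAi cells. The ratio was 5.38 and 3.60 in the 2 backgrounds with *Sin3A* dsRNA, against 1.69 and 1.24 in LID KD and GFP RNAi cells. The log2 paraquat effect was 1.29 ± 0.34 (SE). *MtnD* lies on chromosome 3R at 16360684 to 16361023 (dm3), in a transcript of 274 bases that encodes 44 residues in the Release 6 annotation.

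*MtnB* and *MtnC* were barely detected. *MtnB* read 0.470, 0.132, 1.06 and 0.932 FPKM in SIN3 KD+LID KD, SIN3 KD, LID KD and GFP RNAi cells with paraquat, against 1.24, 0.270, 0.791 and 0.338 FPKM in the same cells without it, and passed 1 FPKM in 2 groups only. Both of these, stressed LID KD and unstressed SIN3 KD+LID KD cells, had received *lid* dsRNA, and *MtnB* entered the fit through them alone. It was higher with *lid* dsRNA in all 4 pairs, by ratios of 1.13 to 4.60 (log2 effect 1.09 ± 0.47, SE). The filter that admitted *MtnB* favours such a difference, so nothing is read from it. The paraquat pairs lay on both sides of 1, and the log2 paraquat effect of -0.07 ± 0.47 (SE) was smaller than its error. *MtnC* was listed at 0 in 7 groups and at 0.625 FPKM in SIN3 KD cells, and entered no fit. The 4 metallothionein transcripts are as short as 268 bases (*MtnC*), and FPKM values of transcripts near the length of a sequenced fragment depend on the length correction, whose part here was not tested.

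**Figure D1:**
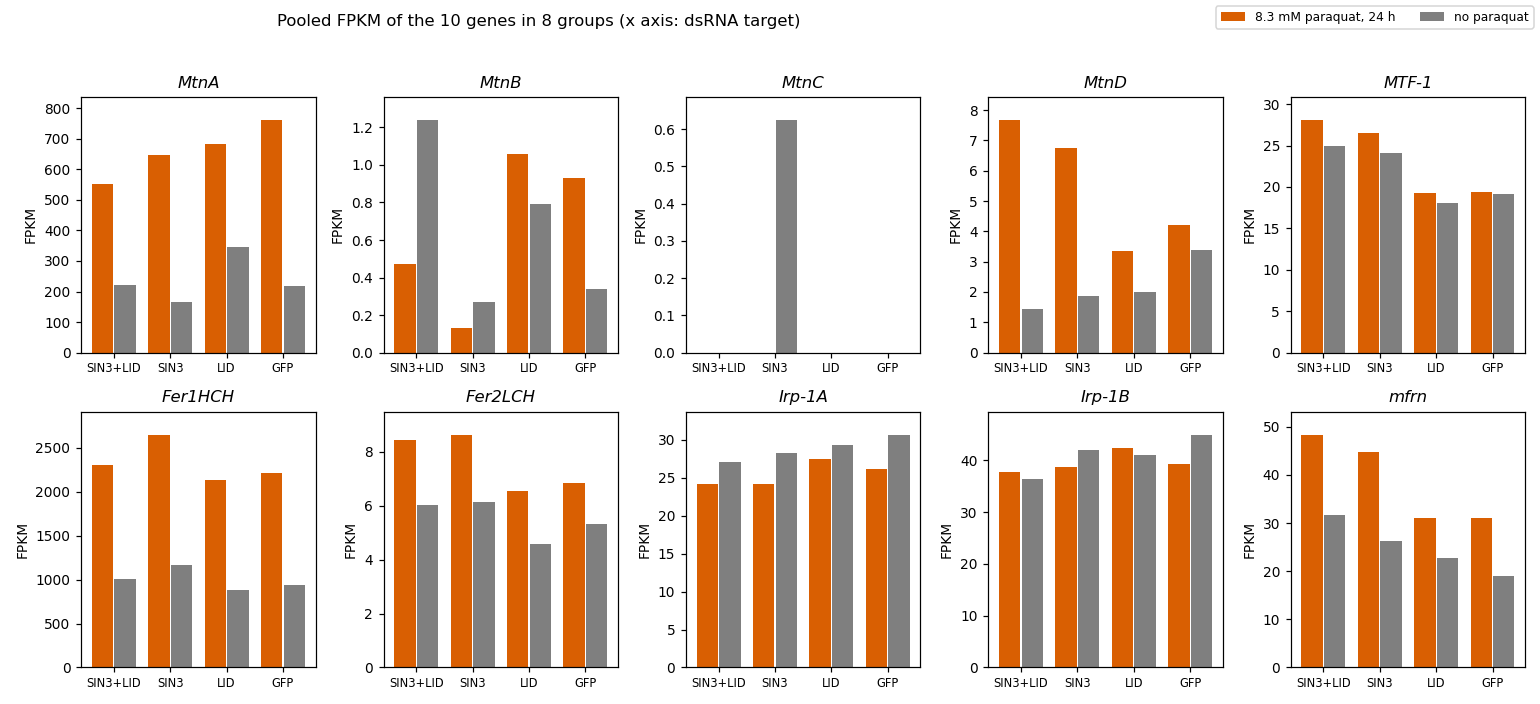
Pooled FPKM of each of the 10 genes (y axis, linear from 0, a scale of its own in each panel) in the 8 groups, by dsRNA target (x axis), with orange bars for paraquat and grey bars for no paraquat; each bar is 1 value that combines 3 libraries, so there are no error bars. *Fer1HCH* bars stand between 2136 and 2648 FPKM with paraquat and between 878 and 1172 FPKM without it, while *MtnC* has a single bar of 0.625 FPKM.

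*MTF-1*, the metal-responsive activator, hardly differed with paraquat. Its values were 28.1, 26.5, 19.2 and 19.4 FPKM in SIN3 KD+LID KD, SIN3 KD, LID KD and GFP RNAi cells with paraquat, against 24.9, 24.2, 18.1 and 19.1 FPKM in the same cells without it. The paraquat ratio was 1.02 to 1.13 (log2 effect 0.10 ± 0.044, SE). The 4 groups with *Sin3A* dsRNA held 24.2 to 28.1 FPKM, against 18.1 to 19.4 FPKM in the 4 groups without it, with no overlap. The *Sin3A* dsRNA ratio was 1.26 to 1.46 (log2 effect 0.45 ± 0.044, SE). *MTF-1* overlaps other genes in the Release 6 annotation, among them an antisense RNA gene and *Bet3*, so part of its reads could be theirs.

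*Irp-1A* was slightly lower with paraquat in every background. It read 24.1, 24.1, 27.5 and 26.2 FPKM in SIN3 KD+LID KD, SIN3 KD, LID KD and GFP RNAi cells with paraquat, against 27.0, 28.2, 29.3 and 30.7 FPKM in the same cells without it. The ratios of 0.854 to 0.937 were all below 1 (log2 effect -0.18 ± 0.038, SE), yet the stressed and unstressed groups overlapped. An antisense RNA gene overlaps *Irp-1A* in the Release 6 annotation. *Irp-1B* read 37.7, 38.8, 42.4 and 39.3 FPKM in SIN3 KD+LID KD, SIN3 KD, LID KD and GFP RNAi cells with paraquat, against 36.4, 42, 40.9 and 44.9 FPKM in the same cells without it. These groups overlapped throughout, and the log2 paraquat effect of -0.05 ± 0.056 (SE) was within its error.

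*mfrn* was higher with paraquat and with *Sin3A* dsRNA, in all 4 pairs of each. It stood at 48.3, 44.7, 31.1 and 31.1 FPKM in SIN3 KD+LID KD, SIN3 KD, LID KD and GFP RNAi cells with paraquat, against 31.7, 26.3, 22.8 and 19.1 FPKM in the same cells without it. The paraquat ratio was 1.37 to 1.70 (log2 effect 0.63 ± 0.057, SE), and the ratio for *Sin3A* dsRNA was 1.38 to 1.55 (log2 effect 0.52 ± 0.057, SE). As a result the highest levels were those of the 2 stressed groups that had received *Sin3A* dsRNA, and the lowest that of unstressed GFP RNAi cells. Stressed and unstressed groups overlapped, as unstressed SIN3 KD+LID KD cells (31.7 FPKM) lay above stressed LID KD and GFP RNAi cells (31.1 FPKM). Groups with and without *Sin3A* dsRNA overlapped too, as unstressed SIN3 KD cells (26.3 FPKM) lay below the same stressed cells. *mfrn* lies on chromosome 3R at 23768518 to 23773743 (dm3).

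**Figure D2:**
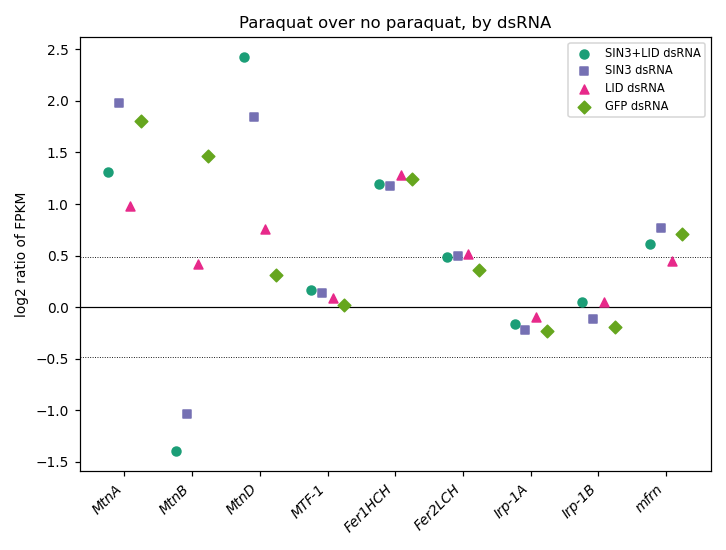
The log2 ratio of FPKM with paraquat over FPKM without it (y axis) for 9 of the 10 genes (x axis), 1 point for each dsRNA background; *MtnC* is left out because it was listed at 0, the solid line marks no difference and the dotted lines mark 1.4-fold. The 4 points of *Fer1HCH* (ratios 2.26 to 2.43) lie close together, those of *MtnD* (1.24 to 5.38) are spread, and those of *MtnB* fall on both sides of 0.

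Across the set, 6 of the 9 genes that could be fitted were among the loci listed as called for paraquat (limma, Benjamini-Hochberg threshold of 0.05 over 8070 loci), 5 higher (*MtnA*, *MtnD*, *Fer1HCH*, *Fer2LCH* and *mfrn*) and 1 lower (*Irp-1A*). Of all loci 35.6% were called, 14.9% higher and 20.7% lower. Since the genes were chosen with these values known, nothing is read from the comparison of the 2 shares. The hemocyte markers moved with paraquat as well, down to 584 to 930 FPKM in sum against 786 to 1361 FPKM without it. The split of all calls moved with scaling: 1205 of 2875 calls (41.9%) were higher on the deposited FPKM, 834 of 2812 (29.7%) after scaling each group to the same sum and 1609 of 2938 (54.8%) after centring on the median. No fitted paraquat effect of the 9 genes changed sign under these scalings, and *MTF-1* joined the called loci after centring. The call of *MtnD* rested on single groups, as it was lost in 5 of the 8 fits that left out 1 group (stressed or unstressed SIN3 KD+LID KD, stressed or unstressed SIN3 KD, or unstressed LID KD cells), and that of *Irp-1A* was lost without either stressed group that had received *Sin3A* dsRNA.

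Set against the unstressed GFP RNAi group, which all 7 comparisons share, members past 1.4-fold were counted in each other group. This is the fold threshold of the study alone, without the FDR cutoff that the study also required. A locus was counted if it had at least 1 FPKM in either group compared. In stressed SIN3 KD+LID KD cells 6 of 8 genes were past it, all higher (background 18.2% of loci higher and 19.4% lower), and in stressed SIN3 KD cells 5 of 8, all higher (16% and 18%). Stressed LID KD cells had 4 of 9 higher, *MtnA*, *MtnB*, *Fer1HCH* and *mfrn*, and none lower (7.61% and 9.22%). Stressed GFP RNAi cells had 3 of 8 higher, *MtnA*, *Fer1HCH* and *mfrn*, and none lower (6.85% and 6%). Without paraquat the counts were smaller. SIN3 KD+LID KD cells had *MtnB* and *mfrn* higher and *MtnD* lower of 9 (13.3% and 15.6%), SIN3 KD cells had *MtnD* lower of 8 (10.8% and 13.8%), and LID KD cells had *MtnA* higher and *MtnD* lower of 8 (2.54% and 5.69%). *MtnB* entered only in stressed LID KD and unstressed SIN3 KD+LID KD cells, by its own value there (1.06 and 1.24 FPKM). Beside 0.338 FPKM in GFP RNAi cells, such a value could only count as higher. Under 1 FPKM and not counted, it was past 1.4-fold higher in stressed GFP RNAi and unstressed LID KD cells (ratios 2.76 and 2.34). It was lower in stressed SIN3 KD cells (0.389). *MtnA* and *Fer1HCH* were past 1.4-fold with paraquat in all 4 pairs, with 0 genes lower (1.92% of all loci higher and 1.51% lower). No gene of the set was past 1.4-fold in all 4 pairs of *Sin3A* dsRNA (4.77% and 5.6%) or of *lid* dsRNA (0.273% and 0.26%).

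The additive fit also separated *Sin3A* dsRNA from *lid* dsRNA. For *Sin3A* dsRNA, 5 of 9 genes were among the called loci, *MTF-1*, *Fer1HCH*, *Fer2LCH* and *mfrn* higher and *Irp-1A* lower, where 51.7% of all loci were called (25.4% higher and 26.4% lower), and nothing is read from this either. The summed hemocyte markers were 584 to 819 FPKM with *Sin3A* dsRNA, against 805 to 1361 FPKM without it. *Fer1HCH* was 1.08 to 1.25 times as high with *Sin3A* dsRNA as without it, and *Fer2LCH* was 1.15 to 1.31 times as high. *Irp-1A* (ratio 0.879 to 0.923) and *Irp-1B* (0.888 to 0.987) lay below 1 in all 4 pairs. The call of *Irp-1A* was lost when groups were scaled to the same sum and in 5 of the 8 fits that left out 1 group (stressed or unstressed SIN3 KD+LID KD, stressed SIN3 KD, stressed LID KD or unstressed GFP RNAi cells). *Irp-1B* joined the called loci without stressed GFP RNAi cells. *MtnA* was lower in all 4 pairs as well, at 0.642 to 0.850 times its level without *Sin3A* dsRNA, with a log2 effect of -0.40 ± 0.16 (SE) that was called only in the fit without stressed SIN3 KD cells.

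*MtnD* differed with *Sin3A* dsRNA in opposite directions in stressed and unstressed cells, a difference that was not tested. With paraquat it was 2.28 and 1.61 times as high in groups with *Sin3A* dsRNA as in those without, and without paraquat it was 0.717 and 0.554 times as high. The fitted *Sin3A* dsRNA effect of 0.14 ± 0.34 (SE) averages these opposite ratios. For *lid* dsRNA, 0 of 9 genes were among the called loci in limma, where 4.37% of all loci were called (2.4% higher and 1.97% lower). Under the same threshold unadjusted were 2 of the 9, *Fer1HCH* and *mfrn*, beside 1887 of all 8070 loci. Nothing is read from these counts. *Fer1HCH* lay at 0.861 to 0.963 and *Fer2LCH* at 0.858 to 0.979 of its level without *lid* dsRNA, below 1 in all 4 pairs of each. *MtnA* was 0.852 and 0.896 times as high with *lid* dsRNA under paraquat, and 1.35 and 1.59 times as high without paraquat. *MtnB*, at its low level, was the gene with the widest difference, higher with *lid* dsRNA in all 4 pairs as given above. It passed the filter only through groups with *lid* dsRNA, so nothing is read from this either.

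**Figure D3:**
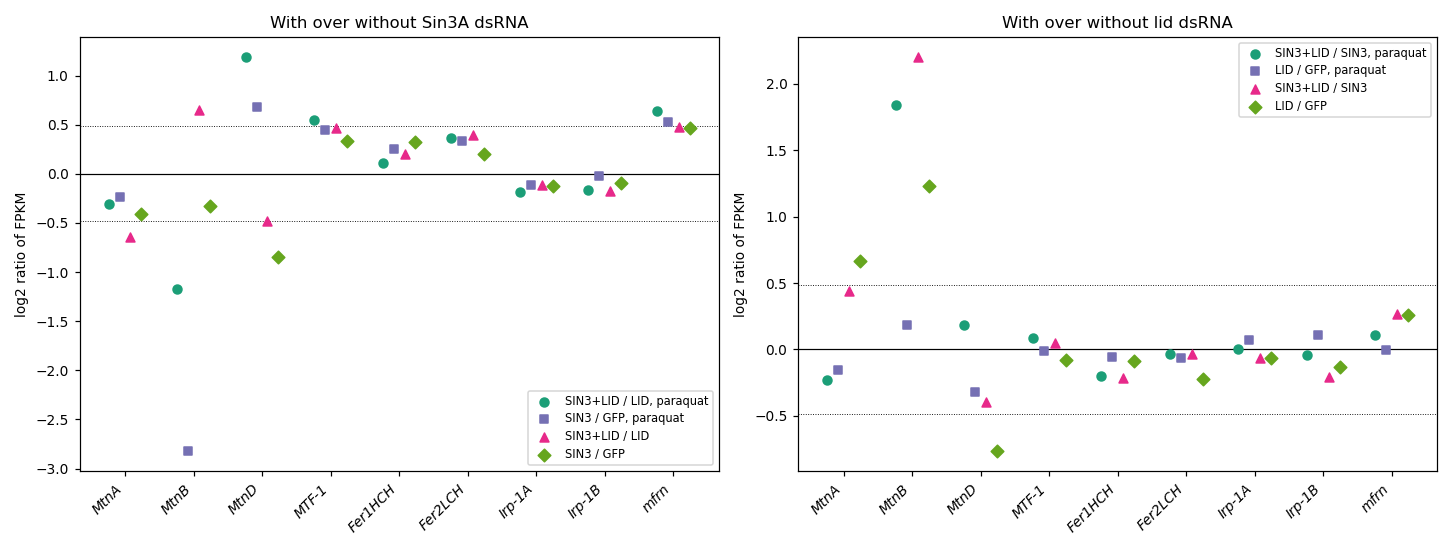
The log2 ratio of FPKM with over without *Sin3A* dsRNA (left panel) and with over without *lid* dsRNA (right panel) for 9 genes (x axis), 1 point for each of 4 pairs of groups; the solid line marks no difference and the dotted lines 1.4-fold. *MTF-1* (1.26 to 1.46) and *mfrn* (1.38 to 1.55) lie above 0 in all pairs of the left panel, while *MtnD* lies above 0 in the 2 pairs with paraquat and below 0 in the 2 without.

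**Figure D4:**
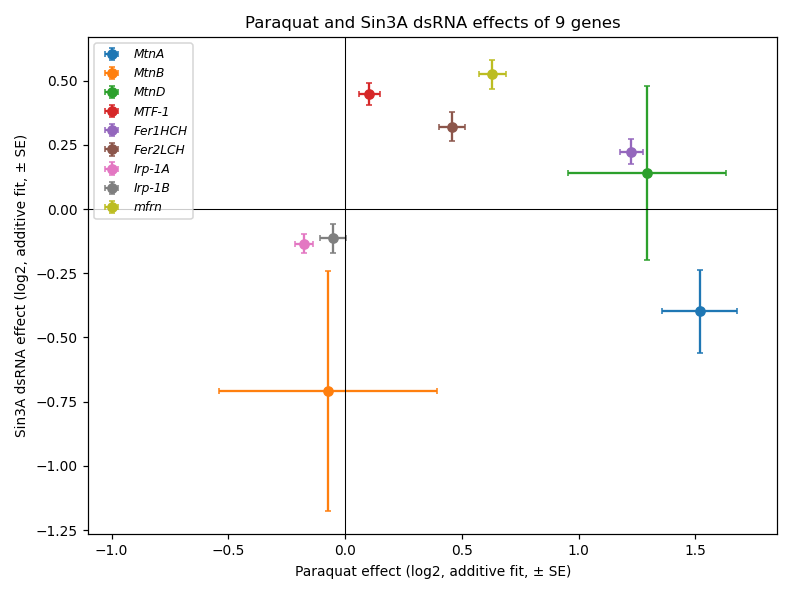
Log2 effect of paraquat (x axis) against log2 effect of *Sin3A* dsRNA (y axis) for 9 genes from the additive limma fit over 8 groups; bars are ± 1 SE. *mfrn* (0.63 and 0.52) and *Fer2LCH* (0.46 and 0.32) lie to the upper right with short bars, *MTF-1* (0.10 and 0.45) lies high near the vertical line, *MtnA* (1.52 and -0.40) to the lower right, and the bars of *MtnB* are the widest.

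Other genes of metal and iron handling were described from lists of known function. The lists were put together with earlier results of these data known. Most genes named from them have the largest or smallest paraquat ratios of their list. Their calls and adjusted p-values are therefore a description too. The other scalings and the fits that left out 1 group were not examined for these genes, so calls on small effects may depend on them. The lists named 43 genes, of which 41 were found and 33 reached 1 FPKM in some group. For paraquat 9 of the 33 rose and 5 fell (adjusted p under 0.05, limma), beside 14.9% and 20.7% of all loci. For *Sin3A* dsRNA 11 rose and 4 fell (25.4% and 26.4%), and for *lid* dsRNA 4 rose and 0 fell (2.4% and 1.97%). Nothing is read from these counts or from those of the single lists. The median log2 paraquat effect of the 33 was 0.07, beside -0.01 over all loci.

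*MtnE*, the metallothionein gene that neighbours *MtnD* at 257 bases on the opposite strand, rose with paraquat. It stood at 4.33, 4.82, 2.73 and 2.77 FPKM in SIN3 KD+LID KD, SIN3 KD, LID KD and GFP RNAi cells with paraquat, against 1.49, 0.981, 0.687 and 1.53 FPKM in the same cells without it. No stressed group overlapped an unstressed one (log2 effect 1.58 ± 0.26, SE, adjusted p = 0.00654 in limma). As for *MtnD*, the 2 highest values were those of stressed cells with *Sin3A* dsRNA.

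Among copper and zinc genes, 4 of 13 rose with paraquat (14.9% of all loci), 1 fell (20.7%) and 8 did not pass. *CG7816*, annotated as the ZIP family transporter *Zip99C* that in flies supplies iron to the secretory pathway, reached 393 to 757 FPKM in stressed cells, against 219 to 318 FPKM in unstressed cells (log2 effect 1.12 ± 0.073, SE, adjusted p = 0.00050 in limma). *CG5130* rose less (0.37 ± 0.11, SE, adjusted p = 0.041 in limma), and so did *ZnT63C* (0.29 ± 0.043, SE) and *CG2177* (0.14 ± 0.031, SE), named after their values were seen. *CG11163*, annotated as the zinc transporter *ZnT41F*, fell (-0.44 ± 0.039, SE), and *CG8632* was at -0.18 ± 0.071 (SE), which did not pass. Among 3 detected genes listed under iron uptake, transport and storage, *Tsf3*, of the transferrin family, rose (0.77 ± 0.11, SE). *Mvl*, an NRAMP metal importer, fell (-0.31 ± 0.037, SE), and *Tsf2* was at -0.07 ± 0.052 (SE), which did not pass. *Tsf2* rose with *Sin3A* dsRNA (0.76 ± 0.052, SE) and with *lid* dsRNA (0.40 ± 0.052, SE). Calls for *lid* dsRNA over all loci dropped from 353 to between 3 and 66 when 1 group was left out. Whether that of *Tsf2* remained was not examined.

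Of 7 heme genes 2 rose with paraquat and 2 fell (14.9% and 20.7% of all loci). *Alas*, the first and rate-limiting enzyme of heme synthesis, reached 60.96 to 131 FPKM with paraquat, against 34.7 to 74.0 FPKM without it (0.85 ± 0.032, SE, adjusted p = 0.000286 in limma), and it also rose with *Sin3A* dsRNA (0.91 ± 0.032, SE). The gene *ferrochelatase*, whose product inserts iron into the heme ring, reached 62.9 to 81.2 FPKM with paraquat, against 59.3 to 65.5 FPKM without it (0.20 ± 0.052, SE). *Pbgs*, the enzyme after *Alas* in the pathway, fell slightly (-0.23 ± 0.069, SE), and *Ho*, heme oxygenase, was at -0.17 ± 0.062 (SE), which did not pass. *Ppox*, named after its value was seen, was the other gene that fell (-0.14 ± 0.042, SE).

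Of 7 genes of iron-sulfur cluster assembly 0 rose with paraquat and 1 fell (14.9% and 20.7% of all loci). The one that fell was *CG12264*, the cysteine desulfurase (-0.15 ± 0.034, SE), while *Fdxh* (0.18 ± 0.067, SE), *CG9836* (0.10 ± 0.071, SE) and the frataxin gene *fh* (0.01 ± 0.13, SE) did not pass. With *Sin3A* dsRNA 2 of the 7 rose, where 25.4% of all loci did. These were *CG9836*, at 1.62 to 1.94 times its level without it (0.84 ± 0.071, SE), and, named after its value was seen, *bcn92* (0.27 ± 0.055, SE). Of the 2 iron-sulfur enzymes, mitochondrial aconitase *Acon* rose (0.13 ± 0.036, SE). *SdhB*, whose mRNA carries an iron-responsive element in flies, read 78.6, 91.4, 70.6 and 105 FPKM in SIN3 KD+LID KD, SIN3 KD, LID KD and GFP RNAi cells with paraquat, against 84.8, 47.4, 64.7 and 49.9 FPKM in the same cells without it. Its ratio thus ran from 0.927 in SIN3 KD+LID KD cells to 2.10 in GFP RNAi cells and did not pass (adjusted p = 0.115 in limma).

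**Figure D5:**
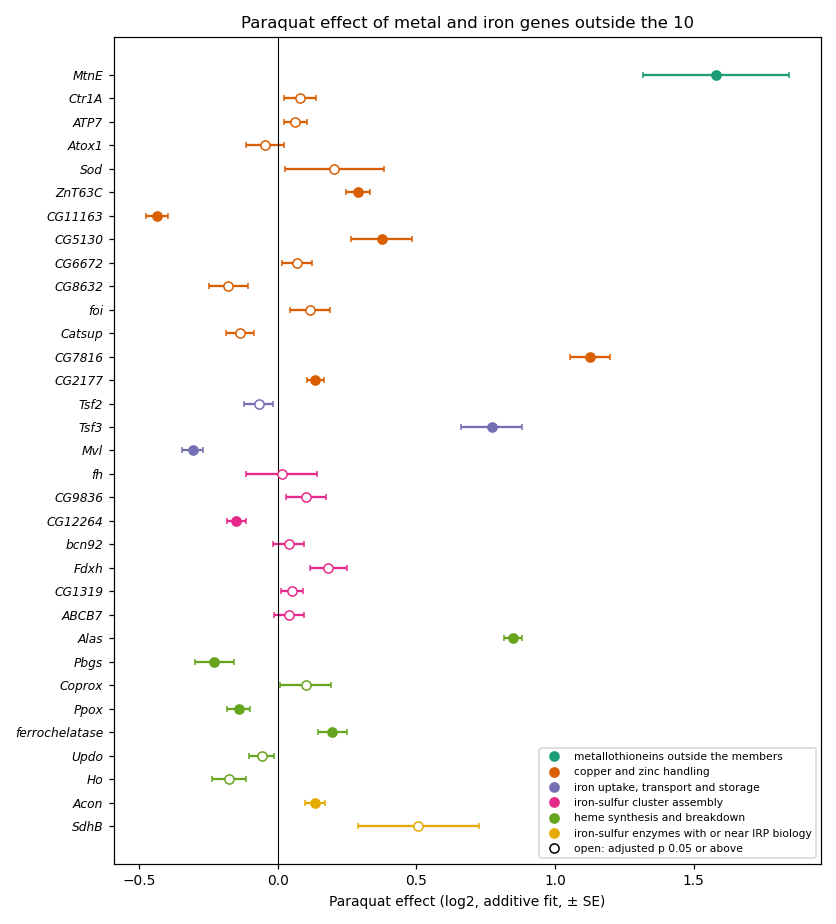
Log2 paraquat effect (x axis, ± 1 SE) from the additive limma fit over 8 groups for the 33 detected genes outside the 10 (y axis), coloured by list; filled points passed an adjusted p of 0.05 and open points did not. *MtnE* (1.58), *CG7816* (1.12), *Alas* (0.85) and *Tsf3* (0.77) stand to the right, and the 7 cluster assembly genes lie between -0.15 and 0.18.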

How the data were processed

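S2 cell RNA was sequenced from 24 samples in 8 groups of 3, grouped by the GEO labels. Per the methods of the study, reads were aligned to the UCSC dm3 genome with TopHat and Bowtie, transcripts were assembled with Cufflinks, and Cuffdiff gave 1 FPKM value per gene and group. Versions are not given in the sources used here. The authors deposited 7 tables that compare each group with unstressed GFP RNAi cells. Their columns of fold changes, test statistics, p-values and q-values were not used. Deposited FPKM values hold no read counts, so the depth of each library, replicate error and intervals could not be computed from them.

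Members, lists and tests were chosen with earlier results of these data known. FPKM values were taken as deposited and log2(FPKM + 0.1) was fitted with limma 3.58.1 (R 4.3.3, lmFit, eBayes with trend) with *Sin3A* dsRNA, *lid* dsRNA and paraquat as additive terms, on 8070 loci with at least 1 FPKM in some group, leaving 4 residual degrees of freedom. The error therefore includes any departure from additivity. Fold changes on the log2(FPKM + 0.1) scale understate the change of low genes. P-values were adjusted by the method of Benjamini and Hochberg over all loci and called below 0.05. Ratios between pairs used FPKM without a pseudocount. The fit was also run on simulated data with additive effects and the same error for all loci. Such data cannot show how the fit behaves where effects are not additive or errors differ between loci.

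The text names the 10 genes, in each list at most the 2 genes with the largest and the 2 with the smallest mean paraquat ratio, and the 3 loci most like *MtnD* and *Fer1HCH*. Interval starts were deposited counting from 0 (the spans of 6 of the 10 genes equal those in the Release 6 annotation) and are given counting from 1. The Release 6 annotation was used for names, lengths and overlaps only. *Ccs* and *Zip42C.1* of the copper and zinc list and the hemocyte marker *NimC1* were not analysed here. A further gene of heme synthesis, outside the 7 listed, is not reported here. Alternatives were other pseudocounts, filters, scalings and folds, and leaving out each group.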

Additional observations from a re-analysis of the deposited data

Results flagged for a closer look

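For 6 genes, both pairs of groups at one level of a second factor moved one way and both pairs at the other level the opposite way. Each of the 3 factors was split by each other factor to find them. How many of all loci have such a pattern was not counted, so nothing is read from the number of genes. None of these differences was tested, and each value is a ratio of 2 pooled FPKM values. The *MtnD* ratio for *Sin3A* dsRNA was 2.28 and 1.61 with paraquat and 0.717 and 0.554 without it. The *MtnA* ratio for *lid* dsRNA was 0.852 and 0.896 with paraquat and 1.35 and 1.59 without it. The *MtnB* ratio for paraquat was 0.379 and 0.488 with *Sin3A* dsRNA and 1.34 and 2.76 without it, on levels of 0.132 to 1.24 FPKM.

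The other flags concern ratios close to 1. The *MTF-1* ratio for *lid* dsRNA was 1.06 and 1.03 with *Sin3A* dsRNA and 0.992 and 0.948 without it. The *Irp-1A* ratio for *lid* dsRNA was 1.00 and 1.05 with paraquat and 0.958 and 0.956 without it. The *Irp-1B* ratio for paraquat was 1.04 and 1.04 with *lid* dsRNA and 0.924 and 0.875 without it.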

How the results depend on the processing

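No paired analysis was possible because the deposited columns combine the 3 replicates of a group and carry no replicate values, and for the same reason no replicate could be left out. Each group was left out in turn instead, which leaves 3 residual degrees of freedom. Loci called for paraquat then numbered 1408 to 2659 (2875 with all groups), for *Sin3A* dsRNA 3158 to 3887 (4174) and for *lid* dsRNA 3 to 66 (353), and the members called numbered 4 to 6, 4 to 6 and 0. The lowest paraquat counts, 1408, 1666 and 1703, came without stressed SIN3 KD, stressed SIN3 KD+LID KD and unstressed LID KD cells. Uncalled effects changed sign in such fits. The log2 paraquat effect of *MtnB* ranged from -0.52 to 0.34, the *Sin3A* dsRNA effect of *MtnD* from -0.18 to 0.44, and the *lid* dsRNA effects of *MTF-1* from -0.020 to 0.044 and of *Irp-1A* from -0.039 to 0.0025. The *lid* dsRNA count was 152 without a filter on low values and 227 with groups scaled to the same sum. With a 2-fold threshold the members past it were 3 in stressed SIN3 KD, 0 in SIN3 KD and 0 in LID KD cells (5, 1 and 2 at 1.4-fold), and 1 in all 4 paraquat pairs (2). Scaling to the same sum gave 2 members in SIN3 KD cells and moved all log2 ratios of stressed against unstressed SIN3 KD cells by -0.12. The cause of these changes was not tested.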

Other observations

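Over the 8 groups and 7287 loci with at least 1 FPKM in all of them, the loci whose log2 levels followed *Fer1HCH* most closely were *Smg5* (Pearson r 0.989), the snoRNA host gene *Uhg8* (0.988) and the *Uhg3* locus (0.985). Within the set, *Fer1HCH* had r of 0.894 with *Fer2LCH*, 0.851 with *MtnA*, 0.815 with *MtnD*, 0.813 with *mfrn* and -0.840 with *Irp-1A*. The value for *Fer2LCH* is limited by the unknown division of reads between the ferritin genes. The loci most like *MtnD*, the gene with the widest range among members above 1 FPKM throughout, were *CG10321* (0.957), *CR44135* (0.951) and *CG31174* (0.945). These values describe 8 pooled levels that share the same libraries, and many other loci also differ with paraquat.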
